A study of Mus musculus with 4 samples.

Results

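The 42 genes described here encode the machinery of mitosis and chromosome segregation: mitotic kinases and cyclins, the spindle assembly checkpoint, the regulators of anaphase, the chromosomal passenger complex, centromere and kinetochore proteins, spindle and cytokinesis factors, and condensin I with topoisomerase. They were taken by symbol, and all 42 were found among the 30282 genes of the deposited table. Poly(A) RNA came from V6.5 cells, a mouse embryonic stem cell line, in which RPB3, a core subunit of RNA polymerase II encoded by Polr2c, was fused to a degron and GFP (dRPB3-mAID-GFP). The IAA group (2 libraries) received 1 µg/ml doxycycline for 12 h, which induces the plant F-box protein TIR1, and then 500 µM of the auxin IAA for 12 h, which leads TIR1 to the degron. The untreated group (2 libraries) received the same doxycycline without IAA, so every library comes from degron cells that had been given doxycycline. All were grown with CHIR99021 and PD0325901, inhibitors of GSK3 and MEK, and Drosophila S2 cells served as spike-in. Another sentence of the protocol gives 1 h of depletion, and the groups are named here by the 12 h that the sample labels give. Neither the clonal origin of the line nor the culture behind each library is given in the labels. The p-values therefore reflect library-to-library spread, and that may be only technical. No library with IAA but without the degron was analysed here.

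Entry into mitosis is driven by CDK1 bound to A- and B-type cyclins and helped by the Aurora and Polo kinases. The spindle assembly checkpoint then holds back the anaphase-promoting complex until every kinetochore is attached to microtubules, after which securin and cyclin B are degraded, separase cuts cohesin and the sister chromatids part. Embryonic stem cells divide fast, with short gap phases, and many genes of this programme are transcribed in the late part of the cell cycle. In bulk RNA, fewer cells in that part of the cycle and less mRNA per cell cannot be told apart.

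The libraries held 9194432 and 8779401 reads in IAA cells, against 8724737 and 8794680 in untreated cells. Levels are given as normalised read counts, which are read counts divided by 1 factor per library as deposited by the authors. The 7 stem cell markers checked lay between 3077 and 12264 in every library and summed to 47224 and 46216 in IAA libraries, against 45162 and 45732 in untreated libraries, with 3 lower and 2 higher. The 10 markers of differentiated lineages summed to 530 and 532 in IAA libraries, against 470 and 488 in untreated libraries, with 1 higher, and Foxa2, Cdx2 and Neurog1 at or near 0. The 4 fibroblast markers found summed to 117 and 135 in IAA libraries and 191 and 242 in untreated libraries. Of these, Col1a1 and Thy1 were lower in IAA, Col1a2 was at single-digit levels and Col3a1 at or near 0. Dcn, Lum and Postn were also looked for and were not among the deposited genes. The part of these marker differences in the results was not tested. Polr2c mRNA was at 3242 and 3158 in IAA libraries, against 2726 and 2885 in untreated libraries (log2 fold change 0.19), which does not check the loss of the protein.

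Many mitosis genes were moderately lower after IAA, a few were higher, and the rest did not pass the test. Of the 42 genes, all of which passed the filter on low values, 21 were lower, 3 were higher and 18 were not called at a limma adjusted p under 0.05. Log2 fold changes are of IAA over untreated, and a signed value in parentheses after a gene is its log2 fold change. Thus 50% of the mitosis genes were lower and 7.14% higher, against a background in the same fit of 28.9% lower and 11.1% higher among 14928 genes. Mitosis genes were well expressed, with means from 388.2 to 9050. Among genes with a mean of at least 100, 36.1% were lower and 13.9% higher, and among the 5785 genes at or above their lowest mean 38.4% were lower and 16.5% higher. Log2 fold changes ran from -0.52 to 0.31 with a median of -0.13, close to the median of all genes tested (-0.11). The median of the 5785 genes at or above their lowest mean was -0.07. Where a change of at least 0.3 on the log2 scale was also required, 8 mitosis genes were lower (19%) and 1 was higher (2.38%). These were Ccnb2, Cdc25b, Bub1, Cdc20, Aurkb, Cenpa, Hmmr and Nusap1, lower, and Plk4, higher. Among all genes tested 19.9% were lower and 6.34% higher at this size, so the share of lower mitosis genes was near that background. It includes genes with lower counts than any mitosis gene, and no share among genes of like level was worked out at this size.

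How many mitosis genes counted as lower depended on the scaling. Size factors recomputed by the median-of-ratios method raised the median of all genes by 0.10 on the log2 scale. Under them 14 mitosis genes were lower and 7 higher, with a background of 20.7% lower and 20.6% higher among all genes and of 24.8% and 32.2% among genes at or above the lowest mitosis gene. All 14 were among the 21, and no gene changed from lower to higher. A core of 13 genes was lower whether the deposited scaling, median-of-ratios scaling or library totals were used, namely Ccnb1, Ccnb2, Cdc25b, Bub1, Bub1b, Cdc20, Ube2c, Aurkb, Cenpa, Hmmr, Nusap1, Ncapd2 and Top2a. Plk4, Ect2 and Smc2 were higher under all of these. The 7 genes whose lower call was lost under median-of-ratios scaling were Cdc25c, Espl1, Incenp, Cenpf, Prc1, Smc4 and Ncapg, and the 4 that gained a higher call under it were Bub3, Birc5, Spc24 and Anln. In the authors' deposited table, whose standard errors for these genes are wider (0.06 to 0.18, against 0.03 to 0.08 here), 10 mitosis genes had an adjusted p under 0.05, all lower, with 9.57% of genes lower and 2.47% higher as its background. These 10 were Ccnb2, Bub1, Bub1b, Cdc20, Aurkb, Cenpa, Hmmr, Nusap1, Ncapd2 and Top2a, and the authors' own label for all 42 genes was unchanged. The authors' deposited table had 0 mitosis genes higher, with 1, Plk4, at an unadjusted p under 0.05, and limma called 3 higher. When 1 library at a time was left out, on unrounded values, 15 of the 21 lower calls and that of Plk4 were kept in every fit, while Cdc25c, Incenp, Cenpf, Prc1, Smc4, Ncapg, Ect2 and Smc2 lost their call at least once.

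**Figure D1:**
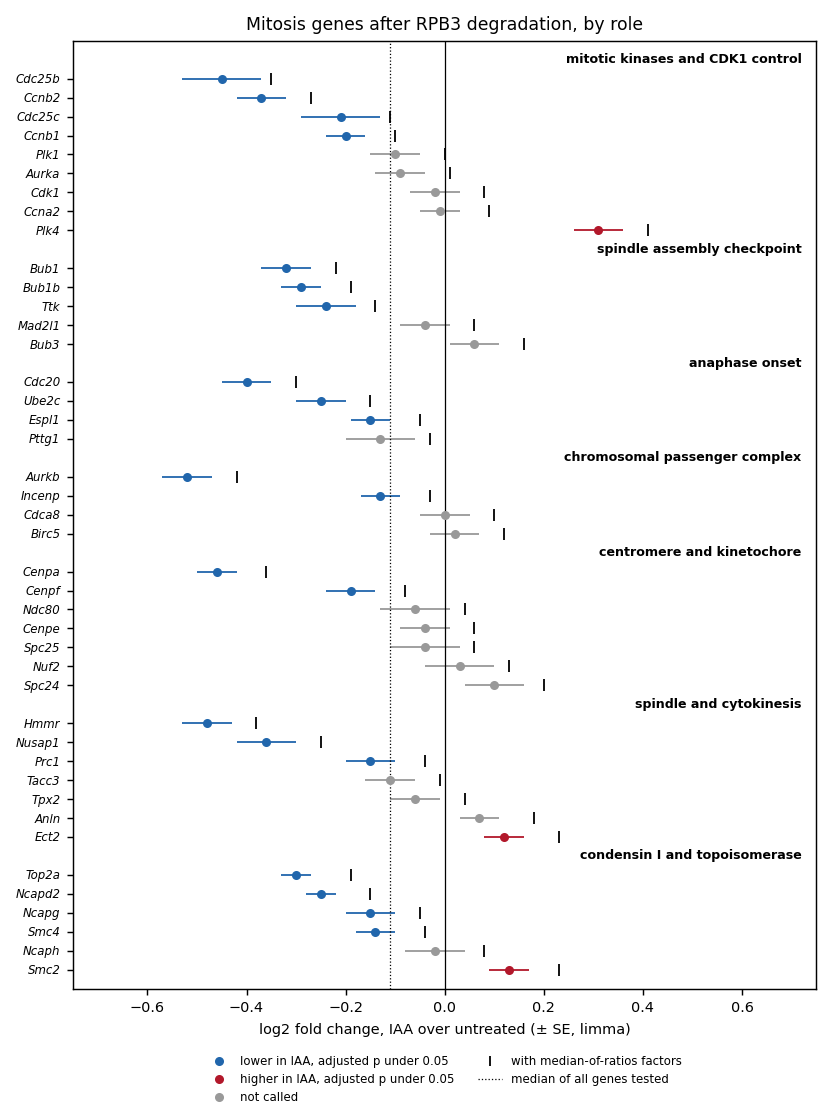
Log2 fold change of each of the 42 mitosis genes, IAA over untreated, at the deposited scaling (points, with the limma SE as bars) and under median-of-ratios scaling (ticks), grouped by role; the dotted line is the median of all genes tested. Blue points (21 genes) are called lower and red points (3 genes) higher, and each role except anaphase onset holds genes on both sides of the dotted line.

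**Figure D2:**
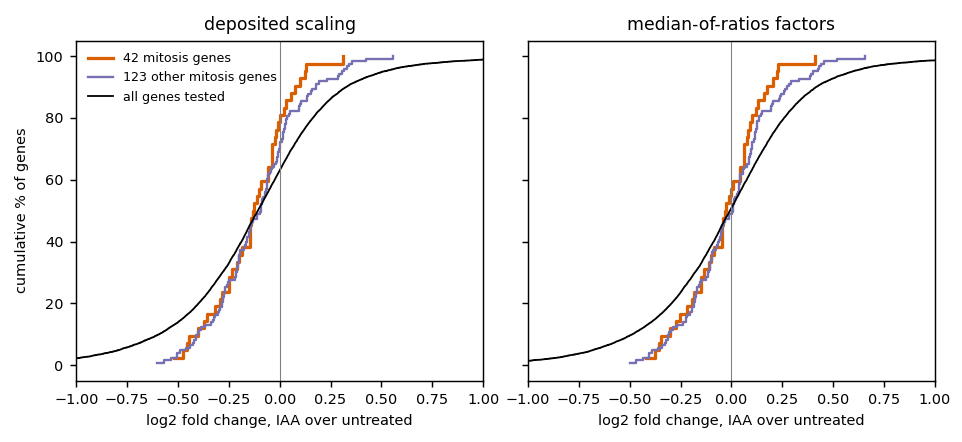
Cumulative percentage of genes against log2 fold change (IAA over untreated) for the 42 mitosis genes, 123 other mitosis genes and all genes tested, for the deposited scaling (left) and median-of-ratios scaling (right). The curves cross near the middle. The 42 mitosis genes ran from -0.52 to 0.31 at the deposited scaling, and a small set of well-expressed genes is bound to span less than all genes.

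Promoters of the mitosis genes held the same pair of short sequence elements more often than promoters in general. Promoters of late cell cycle genes commonly hold a cell cycle genes homology region (CHR), TTTGAA or TTCAAA on the other strand, near the start of transcription, often with CCAAT boxes (ATTGG on the other strand) upstream of it. RefSeq promoters (GRCm38.p6, 250 bases before to 50 after a start) were found for 35 of the 42 genes and numbered 38. Aurkb, Ccna2, Cdc25c, Incenp, Smc4, Spc24 and Tpx2 were not matched. TTTGAA on either strand was present in 26 of the 38 (68.4%), against 17.9% of all 32851 promoters. CCAAT on either strand was present in 28 (73.7%), against 37.4% of all promoters, and both were present in 24 (63.2%), against 6.95%. Promoters of the other mitosis genes lay between, with TTTGAA in 29.9%, CCAAT in 56.4% and both in 17.9% of 117 promoters. The variant TTCGAA, which is its own reverse complement, was in 4 (10.5%), against 1.56% of all promoters. TTTGAA was in the promoters of 13 of 17 genes called lower, 2 of 3 called higher and 8 of 15 not called. Either TTTGAA or TTCGAA was in 15 of 17 called lower, 2 of 3 called higher and 8 of 15 not called, and CCAAT was in 16 of 17, 2 of 3 and 7 of 15 in the same order. At the deposited scaling, the elements were found in a larger share of the genes called lower than of those not called, most of all CCAAT. This contrast is smaller under median-of-ratios scaling, where Espl1, Cenpf, Prc1 and Ncapg, which all hold TTTGAA and CCAAT, were not called. The difference was not tested. The median log2 fold change was -0.15 over the 23 genes with TTTGAA and -0.07 over the 12 without, with overlapping ranges of -0.48 to 0.13 and -0.45 to 0.31. Stretches from 7 promoters are given because they show the shared element in 6 genes that were lower and in Cdk1, which was not called. Capitals mark TTTGAA and CCAAT matches on either strand, and each is written 5′ to 3′ on the strand of the gene (GRCm38.p6).
Cdc20 (chr4:118437344-118437443, minus strand): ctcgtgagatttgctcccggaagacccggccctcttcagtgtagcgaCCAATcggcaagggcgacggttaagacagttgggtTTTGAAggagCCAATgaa
Ube2c (chr2:164769829-164769917, plus strand): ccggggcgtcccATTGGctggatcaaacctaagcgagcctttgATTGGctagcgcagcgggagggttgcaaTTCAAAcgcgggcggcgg
Top2a (chr11:99024199-99024289, minus strand): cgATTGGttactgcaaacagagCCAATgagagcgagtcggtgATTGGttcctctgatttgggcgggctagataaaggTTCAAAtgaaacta
Cdk1 (chr10:69352922-69353012, minus strand): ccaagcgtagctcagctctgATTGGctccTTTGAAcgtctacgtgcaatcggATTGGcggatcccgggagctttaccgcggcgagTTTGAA
Cenpa (chr5:30666890-30666919, plus strand): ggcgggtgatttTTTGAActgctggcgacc
Hmmr (chr11:40733412-40733441, minus strand): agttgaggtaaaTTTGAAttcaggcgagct
Ccnb2 (chr9:70421533-70421562, minus strand): agcggcgcggtaTTTGAAtcgcggaccggg
Counted from 0 at the annotated start base, the CHR shown begins at position -18 in Cdc20, -29 in Ube2c and -23 in Top2a, and at 16 in Cenpa, 8 in Hmmr and 4 in Ccnb2. Cdk1 holds a pair of them, of which the nearer to the start begins at -15. A match of letters is a description and not a bound site.

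Among the genes that control CDK1 and the Aurora A and Polo kinases, the B-type cyclins and the activating phosphatases were lower, Cdk1, Plk1 and Aurka were not called, and Plk4 was higher. The call of Cdc25c was lost under median-of-ratios scaling (-0.11). Of the 9, 4 were lower, 1 was higher and 4 did not pass. The counts by role, here and below, have as background 28.9% lower and 11.1% higher of all genes tested. Among genes at or above the lowest mean of the 42, these shares were 38.4% and 16.5%. Both IAA libraries lay below both untreated ones in 45.6% of all genes tested and above in 22.5%. Ccnb2, a B-type cyclin, had 1447 and 1428 normalised read counts in IAA libraries, against 1908 and 1816 in untreated libraries (-0.37, SE 0.05, adjusted p = 4.18e-06 by limma). Its paralogue Ccnb1 had 2984 and 2863 in IAA libraries, against 3405 and 3318 in untreated libraries (-0.20, SE 0.04, adjusted p = 0.000514). Cdc25b, a phosphatase that activates CDK1 at entry into mitosis, had 326 and 331 in IAA libraries and 448 in each untreated library (-0.45, SE 0.08, adjusted p = 0.000143), and the related Cdc25c had 376 and 399 in IAA libraries and 441 and 454 in untreated libraries (-0.21, SE 0.08, adjusted p = 0.0382). In all 4 genes both IAA libraries lay below both untreated ones. Plk4, the kinase that starts centriole duplication, went the other way. It had 1133 and 1144 in IAA libraries, against 922 and 915 in untreated libraries, a mean of 1138 ± 7.78 in IAA libraries, against 918.5 ± 4.95 in untreated libraries (SD, n = 2 each) and the log2 value was 0.31 higher in IAA (SE 0.05, limma adjusted p = 0.000135; chromosome 3, 40800019 to 40816883, GRCm38). This was the largest rise of the 42. Cdk1 itself, at 2027 and 1904 in IAA libraries and 1991 and 1985 in untreated libraries, and Ccna2, the A-type cyclin of S phase and early mitosis, at 2874 and 2649 in IAA libraries, against 2756 and 2797 in untreated libraries, had overlapping groups (fold changes of -0.02 and -0.01, both positive under median-of-ratios scaling, at 0.08 and 0.09). Plk1 (-0.10) and Aurka (-0.09), which act in spindle assembly and mitotic entry, did not pass either, although both IAA libraries lay below both untreated ones, with 1361 and 1347 in IAA libraries, against 1469 and 1440 in untreated libraries for Plk1 and 1121 and 1081 in IAA libraries, against 1198 and 1153 in untreated libraries for Aurka.

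The kinase components of the spindle assembly checkpoint were lower and its smaller subunits were not called. Of 5 genes, 3 were lower, and all 3 were also lower with median-of-ratios factors. Bub1, a kinetochore kinase, had 1082 and 1128 in IAA libraries and 1399 and 1361 in untreated libraries (-0.32, SE 0.05, adjusted p = 6.26e-05). Bub1b, which encodes the checkpoint protein BubR1, had 1895 and 1833 in IAA libraries and 2266 and 2279 in untreated libraries (-0.29, SE 0.04, adjusted p = 3.65e-05). Ttk, the kinase MPS1 that recruits the checkpoint to unattached kinetochores, had 881 and 888 in IAA libraries and 1050 and 1034 in untreated libraries (-0.24, SE 0.06, adjusted p = 0.00199) and was not called with library totals. In none of these did the groups overlap. Bub3, the partner of Bub1 and BubR1, had 1459 and 1393 in IAA libraries and 1388 and 1353 in untreated libraries (0.06, adjusted p = 0.395), and median-of-ratios scaling gave a higher call (0.16). Mad2l1, the protein that inhibits CDC20, had overlapping groups, at 1362 and 1293 in IAA libraries and 1395 and 1331 in untreated libraries (-0.04).

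The genes of anaphase onset all lay lower in both IAA libraries, as did 45.6% of all genes tested. Of the 4, 3 passed the test at the deposited scaling and 2 with median-of-ratios factors, and Cdc20 fell most. Cdc20, the activator of the anaphase-promoting complex and the target of the checkpoint, had 1766 and 1695 in IAA libraries and 2298 and 2278 in untreated libraries, a mean of 1730 ± 50.2 in IAA libraries, against 2288 ± 14.1 in untreated libraries (SD, n = 2 each), or 75.6% of the untreated level (-0.40, SE 0.05, limma adjusted p = 7.43e-07; chromosome 4, 118432901 to 118437352). Ube2c, the ubiquitin-conjugating enzyme of that complex, had 1161 and 1163 in IAA libraries and 1384 and 1377 in untreated libraries (-0.25, SE 0.05, adjusted p = 0.00058). About 22.8% of its annotated exon sequence overlaps Tnnc2 on the opposite strand, the largest overlap among the 42 genes, and whether counting used strand is not given in the sources used here. Espl1, the separase, had 3655 and 3614 in IAA libraries and 4019 and 4028 in untreated libraries (-0.15, SE 0.04, adjusted p = 0.00356) and was not called with median-of-ratios factors (-0.05). Pttg1, the securin that holds separase inactive, had 489 and 493 in IAA libraries and 543 and 530 in untreated libraries and did not pass (-0.13, adjusted p = 0.157).

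In the chromosomal passenger complex, 2 of 4 genes were lower, and its kinase gene Aurkb alone was lower under every scaling tried. Aurkb, the catalytic subunit that corrects faulty attachments and drives cytokinesis, had the largest fall of the 42 genes. It had 863 and 849 in IAA libraries and 1253 and 1206 in untreated libraries, a mean of 856.0 ± 9.9 in IAA libraries, against 1230 ± 33.2 in untreated libraries (SD, n = 2 each), or 69.6% of the untreated level (-0.52, SE 0.05, limma adjusted p = 3.6e-07; chromosome 11, 69045647 to 69051664). Its scaffold Incenp had 2144 and 2072 in IAA libraries and 2360 and 2262 in untreated libraries (-0.13, SE 0.04, adjusted p = 0.0225) and was not called with median-of-ratios factors (-0.03). Birc5, which encodes survivin, had 1644 and 1689 in IAA libraries and 1670 and 1617 in untreated libraries (0.02), and Cdca8, which encodes borealin, had 1608 and 1573 in IAA libraries and 1558 and 1618 in untreated libraries (0.00). Both had overlapping groups and did not pass, and median-of-ratios scaling gave a higher call for Birc5 (0.12).

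Cenpa stood out among the centromere and kinetochore genes, whereas the NDC80 genes were not called. Of 7 genes, 2 were lower (28.6%, near the 28.9% of all genes tested) and 5 did not pass. Cenpa, the histone H3 variant that marks the centromere, had 1955 and 1938 in IAA libraries and 2702 and 2647 in untreated libraries, a mean of 1946 ± 12 in IAA libraries, against 2674 ± 38.9 in untreated libraries (SD, n = 2 each), or 72.8% of the untreated level (-0.46, SE 0.04, limma adjusted p = 8.15e-08; chromosome 5, 30666777 to 30674830). This adjusted p was the smallest among the 42. Cenpf, a large protein of the outer kinetochore, had 1340 and 1352 in IAA libraries and 1601 and 1463 in untreated libraries (-0.19, SE 0.05, adjusted p = 0.00832) and was not called with median-of-ratios factors (-0.08). The motor gene Cenpe had 1955 and 2065 in IAA libraries and 2113 and 2013 in untreated libraries, which overlap (-0.04). The NDC80 complex, which binds microtubules, has 4 subunits, and their fold changes ran from -0.06 for Ndc80 to 0.10 for Spc24. Ndc80 had 624 and 603 in IAA libraries and 648 and 631 in untreated libraries, and Nuf2 had 572 and 540 in IAA libraries, against 535 and 553 in untreated libraries (0.03). Spc24 had 810 and 747 in IAA libraries and 707 and 744 in untreated libraries (adjusted p = 0.225), and Spc25 had 648 and 709 in IAA libraries, against 698 and 693 in untreated libraries (-0.04). None of the 4 passed at the deposited scaling, and median-of-ratios scaling gave a higher call for Spc24 (0.20).

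Among spindle and cytokinesis genes, Hmmr and Nusap1 were lower under every scaling tried and Ect2 was slightly higher, with a call lost when either of 2 single libraries was left out. Of 7 genes, 3 were lower, 1 was higher and 3 did not pass. Hmmr, a hyaluronan receptor that also acts at spindle poles, had 2103 and 2234 in IAA libraries and 3190 and 2852 in untreated libraries, a mean of 2168 ± 92.6 in IAA libraries, against 3021 ± 239 in untreated libraries (SD, n = 2 each; -0.48, SE 0.05, limma adjusted p = 3.66e-07; chromosome 11, 40701395 to 40733422). Its untreated libraries differed more from each other than those of most mitosis genes, yet both lay above both IAA libraries. Nusap1, a protein that bundles spindle microtubules, had 771 and 737 in IAA libraries and 1009 and 922 in untreated libraries (-0.36, SE 0.06, adjusted p = 0.000131). Prc1, the crosslinker of the central spindle, had 1587 and 1542 in IAA libraries and 1778 and 1683 in untreated libraries (-0.15, SE 0.05, adjusted p = 0.0223) and was not called with median-of-ratios factors (-0.04). Ect2, the activator of RhoA in cytokinesis, had 3052 and 2961 in IAA libraries and 2799 and 2716 in untreated libraries (0.12, SE 0.04, adjusted p = 0.0199). The call of Ect2 was lost without IAA replicate 1 (0.10) or untreated replicate 2 (0.10) on unrounded values, and in the authors' deposited table its adjusted p was 0.351. Anln, which encodes the cytokinetic scaffold anillin, lay above in both IAA libraries, at 3684 and 3787 in IAA libraries, against 3565 and 3529 in untreated libraries, and did not pass (0.07), though median-of-ratios scaling gave a higher call (0.18). Tacc3 (1385 and 1352 in IAA libraries, 1506 and 1455 in untreated libraries; -0.11) and Tpx2 (2207 and 2291 in IAA libraries, 2466 and 2218 in untreated libraries; -0.06), both spindle assembly factors, did not pass.

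Topoisomerase and some condensin I subunits were lower, while Smc4 was lower and its partner Smc2 higher at the deposited scaling, the call of Smc4 being lost under median-of-ratios scaling. Of 6 genes, 4 were lower and 1 was higher. Top2a, the enzyme that untangles sister chromatids, had 8066 and 8186 in IAA libraries and 10128 and 9822 in untreated libraries (-0.30, SE 0.03, adjusted p = 4.02e-07). Ncapd2, a regulatory subunit of condensin I, had 6352 and 6236 in IAA libraries and 7503 and 7483 in untreated libraries (-0.25, SE 0.03, adjusted p = 4.29e-06). Its exons include the small RNA gene Scarna10 (3.78% of exon sequence overlaps it and Gm28967 on the same strand). Smc4, an ATPase subunit of condensin, had 3080 and 3232 in IAA libraries and 3522 and 3441 in untreated libraries (-0.14, SE 0.04, adjusted p = 0.00807), and Ncapg had 1263 and 1287 in IAA libraries, against 1410 and 1415 in untreated libraries (-0.15, SE 0.05, adjusted p = 0.0228). Both were not called with median-of-ratios factors (-0.04 and -0.05). Smc2, the ATPase partner of Smc4, had 2987 and 3106 in IAA libraries and 2814 and 2759 in untreated libraries and was higher (0.13, SE 0.04, adjusted p = 0.0166). The call of Smc2 was lost without IAA replicate 2 (0.10) on unrounded values, and in the authors' deposited table its adjusted p was 0.339. Ncaph had overlapping groups, at 1084 and 1024 in IAA libraries and 1089 and 1055 in untreated libraries (-0.02).

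**Figure D3:**
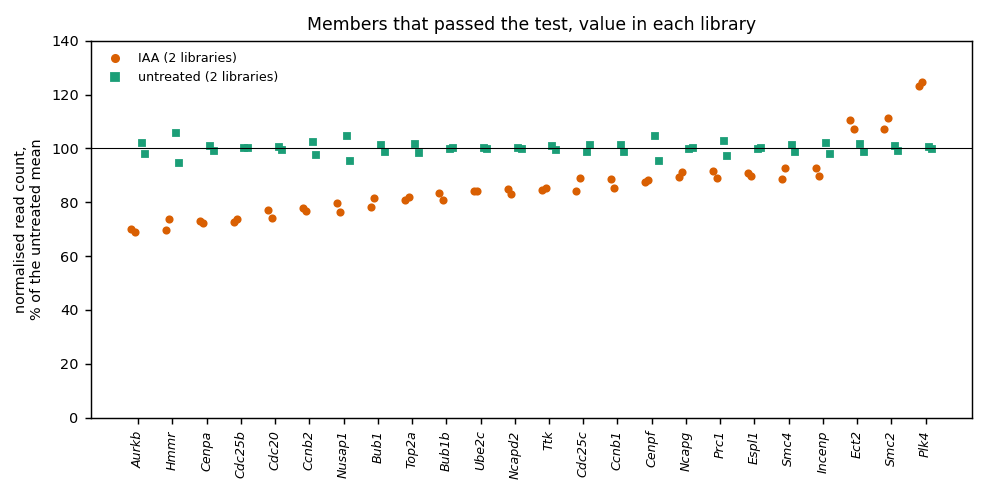
Normalised read count of each of the 24 mitosis genes called at the deposited scaling, in each library, as a percentage of the mean of the untreated libraries; circles are IAA libraries and squares untreated libraries. For 21 genes both IAA libraries lie below both untreated ones, from Aurkb at 69.6% on average to Incenp at 91.2%, and for Ect2, Smc2 and Plk4 both lie above.

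Over the 42 genes, both IAA libraries lay below both untreated libraries in 26, above in 6, and overlapped in 10, where 45.6% of all genes tested lay below and 22.5% above. The summed values of the 42 genes took 0.844% and 0.852% of all values in IAA libraries, against 0.897% and 0.858% in untreated libraries, so both IAA libraries lay below both untreated libraries, though 0.852% and 0.858% are close.

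Ratios between related genes within a library do not depend on the scaling. The log2 ratio of Aurkb to Aurka was -0.38 and -0.35 in IAA libraries, against 0.06 in each untreated library, a difference of -0.43. Within the passenger complex, Aurkb to Birc5 was -0.93 and -0.99 in IAA libraries, against -0.41 and -0.42 in untreated libraries. Plk4 to Plk1 was -0.26 and -0.24 in IAA libraries, against -0.67 and -0.65 in untreated libraries, a difference of 0.41, and Smc4 to Smc2 was 0.04 and 0.06 in IAA libraries, against 0.32 in each untreated library, a difference of -0.27. Cdc25b to Cdc25c differed by -0.24 and Ccnb2 to Ccnb1 by -0.17, with no overlap of the groups. Bub1b to Bub1 was 0.81 and 0.70 in IAA libraries, against 0.70 and 0.74 in untreated libraries, and overlapped. These pairs of related or partner genes were chosen with the values known, and an exact permutation test of 2 libraries against 2 cannot give a p below 0.333, so the ratios are given as a description.

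Subunits of the same complex differed widely in read count per kilobase of annotated exon. Per kilobase of annotated exon (all GENCODE M21 transcripts of a gene joined), condensin I transcripts averaged 1004 for Ncapd2 in IAA libraries, against 1196 in untreated libraries, and 180.4 for Ncapg in IAA libraries, against 199.9 in untreated libraries. Smc2 and Smc4 lay between, at 556.1 and 605.8 per kilobase in IAA libraries and 508.7 and 668.2 in untreated libraries. The NDC80 complex ran between 87.7 for Nuf2 and 302.6 for Spc24 in IAA libraries and between 85.8 for Nuf2 and 282.0 for Spc24 in untreated libraries. In the passenger complex, Aurkb was at 290.6 per kilobase in IAA libraries, below Cdca8 at 307.2. In untreated libraries Aurkb was at 417.3, above Cdca8 at 306.7. This order rests on the exon length used. Joined exons come to 5177 bases for Cdca8 and 2946 for Aurkb, but the longest coding sequences are 978 and 1035 bases. Not divided by length, Aurkb lay below Cdca8 in both groups, at 856.0 against 1590 in IAA libraries and 1230 against 1588 in untreated libraries.

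**Figure D4:**
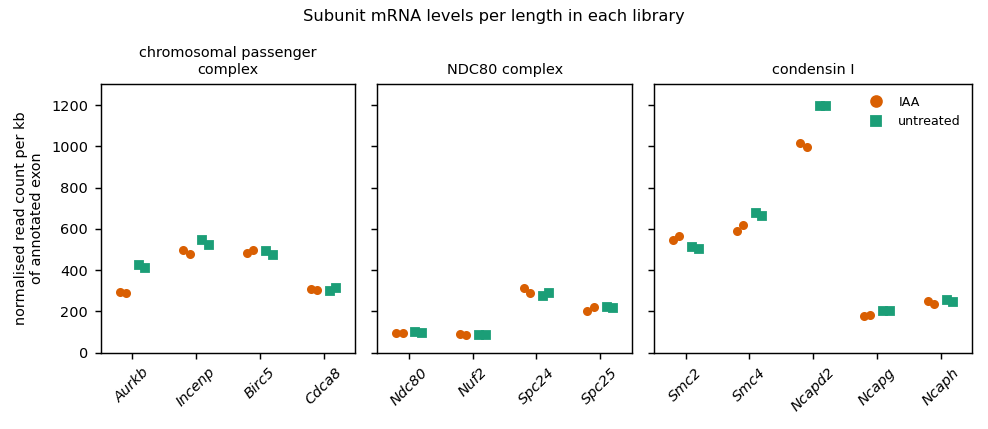
Normalised read count per kilobase of annotated exon for the subunits of the chromosomal passenger complex, the NDC80 complex and condensin I in each library; circles are IAA libraries and squares untreated libraries. Aurkb, Incenp, Ncapd2, Smc4 and Ncapg lie lower in both IAA libraries, and Smc2 lies higher. No NDC80 subunit was called at the deposited scaling, though Ndc80 lies slightly lower and Spc24 slightly higher in both IAA libraries.

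The 42 genes lie on 15 chromosomes, 9 of them on chromosome 2 and 5 on chromosome 11, and span 4.45 to 61.1 kb (median 21.3 kb). Over the 42 genes, which share libraries and scaling, Spearman's rho of the log2 fold change was 0.119 with gene length, 0.205 with exon length and -0.0137 with the mean value. Exons of 13 genes overlap another annotated gene. Ccnb1 and Ccnb2 have annotated pseudogenes named after them, with which they can share reads, and only pseudogenes bearing the gene's own symbol were searched.

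Other genes of mitosis, listed by function and with kinesins left out, numbered 123 tested, of which 52 were lower (42.3%) and 10 higher (8.13%). Of all genes tested, 28.9% were lower and 11.1% higher, and of those with a mean of at least 100, 36.1% and 13.9%. The median log2 fold change was -0.09, against -0.11 for all genes tested. Median-of-ratios scaling made it 28 lower and 26 higher of the 123, against 20.7% and 20.6% of all genes. Among genes at or above the lowest mean of the 42, that scaling called 24.8% lower and 32.2% higher. The counts of the lists below have these same shares as background. Subunits and regulators of the anaphase-promoting complex had 10 of 17 lower and 1 higher, and 5 lower and 1 higher under median-of-ratios scaling. Cdc16 had 1052 and 966 in IAA libraries and 1492 and 1429 in untreated libraries (-0.53), Anapc4 had 522 and 583 in IAA libraries, against 765 and 802 in untreated libraries (-0.50), and Anapc16 was higher (0.42). Cohesin genes had 3 of 17 lower and 2 higher, a balance that turned to 1 lower and 7 higher under median-of-ratios scaling. The acetyltransferase genes of cohesin differed, with Esco2 at 1762 and 1757 in IAA libraries and 2241 and 2299 in untreated libraries (-0.37) and Esco1 at 653 and 592 in IAA libraries, against 466 and 524 in untreated libraries (0.33), while the cohesin loader gene Mau2 was higher (0.29) and the shugoshin Sgo2a was lower (-0.21), though not with median-of-ratios factors.

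Regulators of mitotic entry had 6 of 18 lower and 3 higher, and the balance turned to 3 lower and 6 higher under median-of-ratios scaling. Foxm1, a transcription factor of late cell cycle genes, had 2148 and 2053 in IAA libraries and 1611 and 1675 in untreated libraries and was higher (0.35, SE 0.05, adjusted p = 5.77e-06). Of the MuvB complex, which binds such promoters, Lin9, Lin52 and Lin37 were looked at and did not share a call. Lin9 was higher (0.29, SE 0.09). Lin52 was lower (-0.33, SE 0.11, limma adjusted p = 0.0227), though not called under median-of-ratios scaling. Lin37 did not pass (-0.07), with a wide SE of 0.15. Lin54 was looked for too and was not among the deposited genes. Lin52 and Lin37 were added after their values were seen. Bora, the activator of Aurora A, had 661 and 677 in IAA libraries and 926 and 854 in untreated libraries (-0.41), and Ensa, an inhibitor of the phosphatase PP2A in mitosis, was lower too (-0.44). Further kinetochore and checkpoint genes had 15 of 34 lower and 3 higher, against 6 lower and 5 higher under median-of-ratios scaling, led by Cenpm (-0.60), Kntc1 (-0.50), Cenpb (0.56) and Zw10 (0.34). Further spindle, centrosome and cytokinesis genes had 14 of 32 lower and 0 higher by limma (also 0 at an unadjusted p under 0.05, and 0 in the authors' deposited table), against 9 lower and 6 higher under median-of-ratios scaling. Of these, Ckap2 had 1064 and 1112 in IAA libraries and 1684 and 1546 in untreated libraries (-0.57), and Cep192 had 2249 and 2205 in IAA libraries, against 3015 and 2953 in untreated libraries (-0.42). All 5 genes of condensin II and the chromosome surface were called, 4 lower, among them Mcph1 (-0.41) and the proliferation marker Mki67 (3946 and 3954 in IAA libraries, 4813 and 4815 in untreated libraries; -0.29), and Ncapg2 higher (0.23), with the same counts under median-of-ratios scaling. The limma adjusted p of the called genes named by rule ranged from 1.16e-07 for Ckap2 to 0.0217 for Sgo2a.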

How the data were processed

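Poly(A) RNA libraries from 4 samples were grouped by their titles. Among the authors' tools, per the submitters' processing notes, were featureCounts, DESeq2, STAR, Bowtie2, cutadapt 1.18, deepTools and SAMtools, with dm6 and mm10 as builds, and no roles are given. Per-library values, as the authors deposited them, are scores, meaning reads over 1 factor per library (0.98 and 0.95 for IAA, 0.88 and 0.87 for untreated, worked out from the values) and rounded. The authors also deposited a signal per gene, its mean over libraries before rounding, from which whole reads were recovered for 100% of genes (tolerance 0.001). Further deposited columns hold the authors' log2 fold changes, a Wald score, p-values and adjusted p-values. Whether the factors come from the Drosophila spike-in is not given in the sources used here.

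Genes with a mean of at least 10 (14928) entered limma 3.58.1 (R 4.3.3) as log2(value + 1) (empirical Bayes with trend, Benjamini-Hochberg over all genes tested). Fold changes are on that scale, IAA over untreated. The fit was also run on counts simulated with a chosen spread, which cannot show how well the p-values hold for these libraries. Members and lists were chosen with earlier results of these data known. The naming rule was to give called members, and the highest and most changed member not called per role, by library. The remaining members were added to it after their values were seen. Of the other mitosis genes, up to 2 with the largest called change per list and direction are named. Alternatives were other thresholds, filters, pseudocounts, scalings, libraries left out, a replicate block, voom on recovered reads and the authors' tests. The correlation of same-numbered libraries' deviations was 0.00153, so numbers were not taken as pairs. Chi-square per gene was 1.24 between IAA and 1.41 between untreated libraries, against 9.49 to 9.96 between groups. The libraries of a group thus differed by little more than the sampling of reads. Libraries of 1 culture could also give this, so the values do not show that the replicates are independent. Each library was still counted as 1 replicate in the tests. Gene structures are those of GENCODE M21 (GRCm38).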

Additional observations from a re-analysis of the deposited data

How the results depend on the processing

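The replicate block (21 lower and 3 higher), other pseudocounts, a minimum mean of 100, unrounded values and voom changed no call of the 42 mitosis genes. The block did not rest on a known pairing. Requiring a change of at least 0.3 on the log2 scale left 8 mitosis genes lower and 1 higher, 21 and 5 of the other mitosis genes, and 2973 of all genes lower (19.9%) and 946 higher. At an adjusted p under 0.01 the higher calls were 1 mitosis gene and 1037 of all genes. With no filter on low values, 9 mitosis genes were lower and 1 higher, 6 and 1 of the other mitosis genes, and 638 and 179 of all genes. With median-of-ratios factors 7 mitosis genes and 3016 of all genes were higher, and the other mitosis genes had 28 lower and 26 higher. With library totals 13 mitosis genes were lower and 8 higher, the other mitosis genes had 28 and 26, and 3062 of all genes were higher. Both scalings put the median of the 42 genes at -0.03. The authors' deposited table had 10 lower and 0 higher mitosis genes (by limma, 21 and 3), 16 and 3 other mitosis genes, and 1100 and 284 of all genes.

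Leaving out 1 library left 0 calls in every count by limma on the rounded values, where 361 to 372 genes hold equal values in both replicates of a group, although 16 to 21 mitosis genes were lower and 1 to 3 higher at an unadjusted p under 0.05. On unrounded values, chosen after seeing the data, the fits without 1 library called 17 to 20 mitosis genes lower and 2 to 3 higher, 37 to 47 and 8 to 10 of the other mitosis genes, and 3471 to 3939 and 1146 to 1608 of all genes. In these fits calls were lost without IAA replicate 1 for Cdc25c (-0.17), Smc4 (-0.11), Ncapg (-0.13) and Ect2 (0.10), without IAA replicate 2 for Incenp (-0.11), Prc1 (-0.12), Ncapg (-0.16) and Smc2 (0.10), without untreated replicate 1 for Cdc25c (-0.23), Incenp (-0.10), Cenpf (-0.12) and Prc1 (-0.11), and without untreated replicate 2 for Cdc25c (-0.19), Ncapg (-0.15) and Ect2 (0.10). The median ranged from -0.15 to -0.10, the highest without untreated replicate 1. A group reduced to 1 library takes its spread from the other group's libraries.

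Fold changes of genes not called changed sign with median-of-ratios factors for Cdk1 (0.08), Ccna2 (0.09), Aurka (0.01), Mad2l1 (0.06), Cenpe (0.06), Ndc80 (0.04), Spc25 (0.06), Tpx2 (0.04) and Ncaph (0.08), and with library totals for Cdk1 (0.09), Ccna2 (0.10), Plk1 (0.00), Aurka (0.01), Mad2l1 (0.07), Cenpe (0.07), Ndc80 (0.05), Spc25 (0.07), Tpx2 (0.05) and Ncaph (0.08). Without 1 library, fold changes ranged from -0.06 to 0.03 for Cdk1, -0.07 to 0.05 for Ccna2, -0.00 to 0.04 for Birc5, -0.03 to 0.03 for Cdca8 (-0.02 to 0.03 on rounded values), -0.08 to 0.00 for Cenpe, -0.01 to 0.07 for Nuf2, -0.10 to 0.03 for Spc25, -0.13 to 0.02 for Tpx2 and -0.07 to 0.02 for Ncaph. The SE of the 42 genes, 0.03 to 0.08 with 2 libraries a group, limits which changes could be called. The cause of the changes between settings was not tested.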
